A study of Mus musculus with 88 samples.

Results

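Immediate early genes are switched on by growth factors, stress and adhesion within minutes, from transcription factors already present in the cell. Most of their transcripts decay again within hours. The 10 named members of this class were followed here: Fos, Fosb, Jun and Junb, whose proteins pair as the AP-1 transcription factor, and Atf3, a stress-induced partner of the same bZIP family. The others are the zinc-finger factors Egr1 and Egr2, readouts of ERK signaling, the Krüppel-like factors Klf6 and Klf10, of which Klf10 is also induced by TGF-beta, and Ier2, a short nuclear protein. In pluripotent cells FGF2 and Activin A, the factors used for directed differentiation, act through the ERK and SMAD pathways that feed these genes. The members were chosen by name as a class, with earlier results of these data known. All 10 were found in each table, 10 of 53697 genes in the mesoderm series and 10 of 54393 in the endoderm series. In the bulk embryoid bodies they were 10 of 26007 genes, and in the single cells 10 of 15830.

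PRC2, the complex that methylates lysine 27 of histone H3, was disrupted by loss of Mtf2 or Jarid2, its accessory subunits, or of Eed, a core subunit. All cells were mouse embryonic stem cells grown in serum with LIF. For directed differentiation, monolayers of E14 WT, Mtf2 null and Jarid2 null cells were sequenced undifferentiated and at 5, 24 and 48 h in 2 series, each with duplicate libraries. The mesoderm series received Activin A, BMP4, CHIR99021 and FGF2 up to 24 h, then A-83-01 and BMP4, and the endoderm series Activin A, CHIR99021 and FGF2, then Activin A and DM3189. Embryoid bodies, aggregates that differentiate after withdrawal of LIF, gave 24 bulk samples at days 0, 2, 4 and 7, Mtf2 null with its WT line Pcl1-3, Jarid2 null with JM8 and Eed null with J1. They also gave 16 single-cell libraries of all 4 genotypes at days 0, 4, 7 and 10, each with E14 in its title. The study names Pcl1-3, JM8 and J1 as the background-matched WT lines of the nulls. The directed series and single cells set the nulls against E14 WT, so that background and genotype cannot be told apart there. Each null genotype is a single line, so that genotype and line cannot be told apart. The authors describe the duplicates as technical, so that p-values measure the spread between these libraries only.

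Libraries of the directed series held 9111880 to 16898264 counts, bulk embryoid body samples 4071242 to 30457254 reads, and the 4949 single cells 1143 to 105019 UMIs. Mtf2 counts were 31.1 to 34.8 CPM (counts scaled by library size) in undifferentiated Mtf2 null libraries against 375 to 509 in WT. Jarid2 was 297 to 329 in undifferentiated libraries labelled Jarid2 null against 352 to 473 in WT, and over all times the 2 ranges overlapped (189 to 622 against 307 to 661). At 24 h of the mesoderm series it was 189 and 219.6 against 318 and 337, and at 48 h of both series the labelled null libraries were not the lower ones. A count over the whole gene does not check the loss of a part of it. In the bulk embryoid bodies the targeted genes did not clearly follow the labels. At day 0 Mtf2 was 317 CPM in the sample labelled Mtf2 null, 409 in Pcl1-3 and 131 in the sample labelled Jarid2 null. At days 2, 4 and 7 Mtf2 was 238, 233 and 166 in the samples labelled Mtf2 null and 433, 317 and 386 in Pcl1-3. It was thus lower than in Pcl1-3 on each day, and not lost. Eed was 207, 108 and 59.5 on these days in the samples labelled Eed null beside 244, 80.5 and 53.4 in J1. Results on these samples are therefore given for libraries as labelled at every day. Of the pluripotency markers, Pou5f1 was at least 596 CPM in the WT mean at every time, while Nanog, at 437 undifferentiated, was 102 at 48 h of the endoderm series and Esrrb, at 366, was 124. The streak marker T peaked at 24 h in WT at 57.7 (mesoderm) and 24.7 CPM (endoderm). The endoderm markers Sox17, Foxa2, Gsc and Foxa1 stayed below 1 CPM in the WT mean at every time of both series, while Cxcr4, on the same list, went from 0.473 to 2.14 by 24 h of the mesoderm series. Single-cell libraries followed their labels, Eed being 11.5 UMI CPM or less in Eed null and at least 115 in other libraries. Mtf2 was at most 61.1 in Mtf2 null and at least 294 in the others, and Jarid2 115 to 185 in Jarid2 null against 215 to 594 in WT. In bulk RNA, fewer cells that express a gene and less RNA per cell cannot be told apart.

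The serum response element of immediate early promoters is built around the CArG box, CC and GG around 6 A or T, where serum response factor binds. Promoter windows of 300 bases, 250 upstream and 50 downstream of a RefSeq start (GRCm38.p6), were held for 7 of the 10 members, 11 windows in all, and not for Egr1, Ier2 and Klf10. On both strands, an exact CArG box was found for 1 member, Egr2, in 4 of the 11 windows, and in 1.63% of all 32851 windows. Boxes further than 250 bases upstream, or with other letters, would be missed. The cAMP response element TGACGTCA (1.79% of windows), the AP-1 site TGANTCA (7.81%) and the EGR site GCGTGGGCG (0.612%) were found for 0 members. Egr2 has several annotated starts, and the matches in 4 of its windows come down to 2 boxes in the genome. Each is shown once, with the box in capitals, as the only match among the members' windows, and lies 72 bases upstream of one of the starts.
Egr2, chr10:67537484-67537513, plus strand: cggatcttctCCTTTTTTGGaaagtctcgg
Egr2, chr10:67537787-67537816, plus strand: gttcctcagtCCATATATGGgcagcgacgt

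Undifferentiated WT cells expressed the members over a wide range, compared here as CPM per kilobase of exons and given as the range of the means of the 2 series. Ier2 was highest at 69.9 to 73 and well apart from the rest. Junb followed at 18.3 to 19 and Klf10 at 15.4 to 16.9, neighbours whose libraries overlapped. Klf6 stood at 4.63 to 4.64, below both and above the others in every library. Egr1 (1.18 to 1.32), Jun (1.06 to 1.26), Atf3 (0.634 to 0.818) and Fos (0.480 to 0.541) formed a low group in which each overlapped its neighbour. Fosb (0.0793 to 0.0830) and Egr2 (0 to 0.0270) were barely detected, and Egr2 passed the filter on low counts only where both series were fitted together. Over the 48 libraries Egr2 ranged from 0 to 1.66 CPM and Fosb from 0 to 1.72, and neither was called in any comparison of these series. Reads of Jun, Junb and Atf3 could in part be those of genes on the opposite strand (Junos over 689 bases, Prdx2 over 351 and Gm24748 over 108), since the strand setting of the counting is not stated. Ier2 lies at chr8:84661331-84662852, minus strand of GRCm38, the build of the coordinates given with the other genes.

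**Figure D1:**
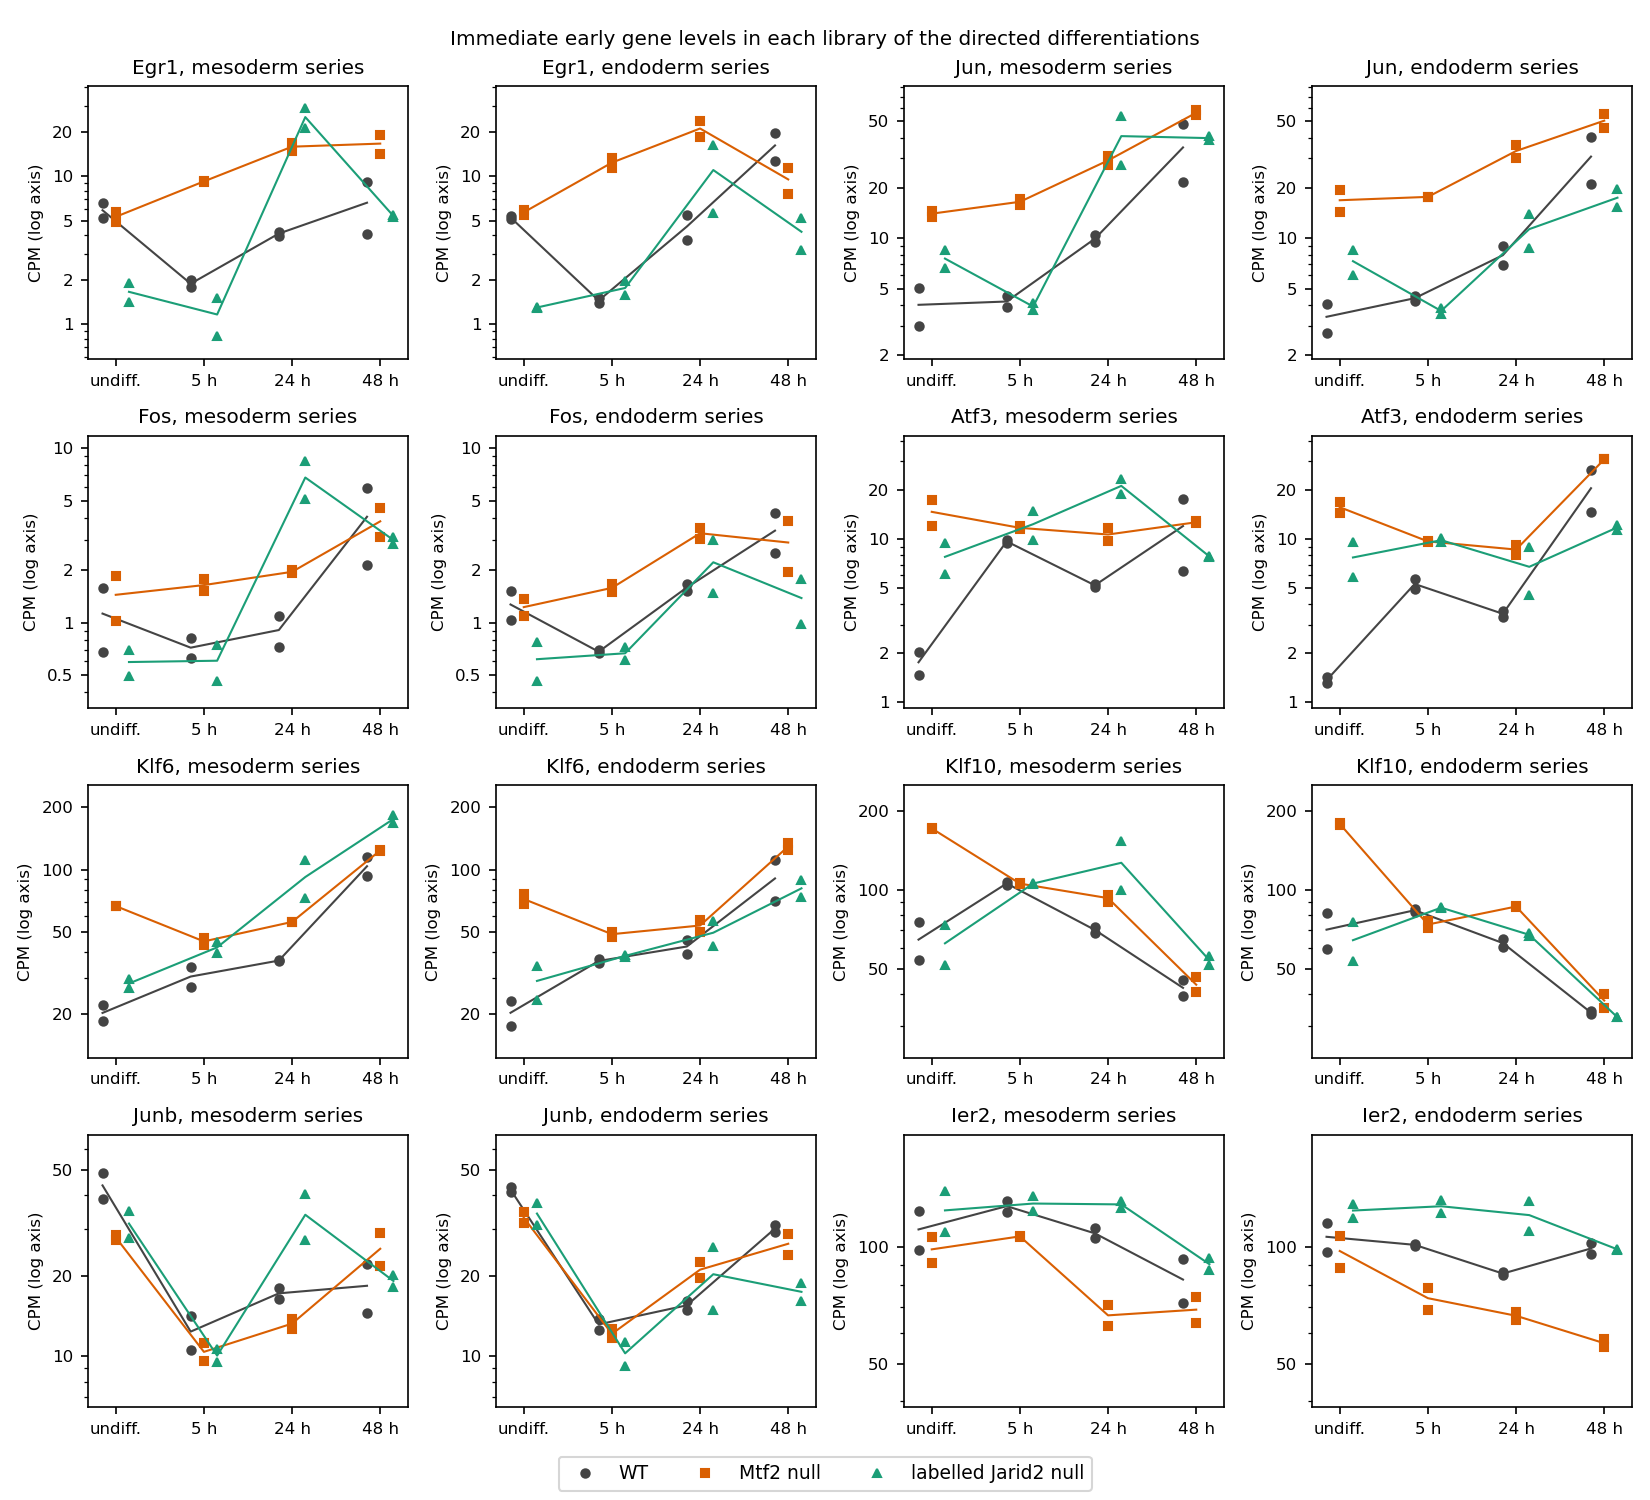
CPM (log axis) of 8 immediate early genes in every library of the mesoderm and endoderm series against time, points for single libraries and lines through the means of the 2 libraries. Egr1 and Jun of Mtf2 null cells lie above WT at 5 and 24 h in both series, Junb is lower at 5 h than undifferentiated in all genotypes, and libraries labelled Jarid2 null stand high at 24 h in the mesoderm series.

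After 5 h of mesoderm or endoderm induction WT cells had less Junb and more Atf3. Cells were washed before the factors were added, and no 5 h culture without factors was sequenced. Handling and factors therefore cannot be told apart. Junb (chr8:84974484-84978718, minus strand) was 48.4 and 38.8 CPM in the 2 undifferentiated libraries of the mesoderm series and 14.1 and 10.6 at 5 h (log2 fold change -1.82 ± 0.22 SE, edgeR adjusted p = 5.09e-06). Endoderm libraries had 41.1 and 43 and then 13.7 and 12.5 (log2 fold change -1.68 ± 0.18 SE, edgeR adjusted p = 2.34e-06). The 2 groups did not overlap in either series, and the fall was called without any one of the libraries. Atf3 (chr1:191170296-191218039, minus strand), induced by many stresses, went the other way, from 1.48 and 2.04 to 9.48 and 9.92 CPM in the mesoderm series (log2 fold change 2.44 ± 0.41 SE, edgeR adjusted p = 0.00014). Its endoderm values were 1.42 and 1.31 and then 4.94 and 5.70 (log2 fold change 1.95 ± 0.39 SE, edgeR adjusted p = 0.000847). Both groups were again apart, but the Atf3 calls rested on 2 libraries a group. Leaving out any 1 of the 4 gave adjusted p-values of 0.00118 to 0.0033 (mesoderm) and 0.00463 to 0.0205 (endoderm), above the limit of 0.001. The limits for a call were those of the study, an adjusted p (Benjamini-Hochberg) below 0.001 with an absolute log2 fold change over 1. In each series 9 members were tested. The 2 called members of 9 compare with 4.13% of all genes called in the mesoderm and 2.10% in the endoderm series.

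The ERK-responsive Egr1 was 6.60 and 5.20 CPM undifferentiated and 1.99 and 1.78 at 5 h in the mesoderm series (log2 fold change -1.63 ± 0.35 SE, edgeR adjusted p = 0.0012). The endoderm values were 5.40 and 5.15 and then 1.39 and 1.51 (log2 fold change -1.86 ± 0.47 SE, edgeR adjusted p = 0.00466). The libraries of the 2 times did not overlap, yet edgeR did not call the difference, and DESeq2 called it in both series. Fos, the founding member of the class, was 1.58 and 0.682 and then 0.813 and 0.627 CPM (mesoderm), with an edgeR adjusted p of 0.448. Klf10 was 75.2 and 53.9 and then 104 and 108 CPM in the mesoderm series (log2 fold change 0.72 ± 0.18 SE, edgeR adjusted p = 0.00345). It was 81.7 and 59.2 and then 82.4 and 84.9 in the endoderm series, a 5 h range just above the undifferentiated one (log2 fold change 0.25, edgeR adjusted p = 0.174). The change of each member from undifferentiated to 5 h was also compared between the 2 series: 0 of 10 members were called, 0 by DESeq2 and 0 at an unadjusted p under 0.05, against 0.00510% of all genes.

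Related genes were called in small numbers at 5 h in WT. Of 20 tested genes in a list of other immediate early genes, 1 rose and 2 fell in the mesoderm series. These were Plk2, a stress-induced kinase (log2 fold change 1.43 ± 0.12 SE, edgeR adjusted p = 1.83e-07), Ier3, an early survival gene (-3.29 ± 0.28 SE, edgeR adjusted p = 1.84e-07), and Zfp36, which destabilizes AU-rich mRNA (-1.58 ± 0.29 SE, edgeR adjusted p = 0.000298). In the endoderm series 0 rose and 2 fell, Ier3 again (-3.30 ± 0.29 SE, edgeR adjusted p = 1.81e-07) and Gadd45b (-1.69 ± 0.23 SE, edgeR adjusted p = 3.1e-05). Of 10 other AP-1 family genes 1 rose in the mesoderm series, Fosl1 (4.17 ± 0.85 SE, edgeR adjusted p = 0.000761), and 0 in the endoderm series. Among 11 genes of ERK feedback, 1 fell in the mesoderm series, the EGR corepressor Nab2 (-1.22 ± 0.20 SE, edgeR adjusted p = 0.000127), and 0 were called in the endoderm series. The streak marker Eomes rose in the endoderm series (1.57 ± 0.22 SE, edgeR adjusted p = 2.7e-05), and 0 of 8 heat-shock genes were called in either series. The median log2 fold change was 0.25 for the other immediate early genes and 0.69 for the other AP-1 genes in the mesoderm series, beside -0.08 over all genes.

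Between 5 and 24 h 0 of 9 members were called in WT of either series, 0 by DESeq2, although 5 (mesoderm) and 5 (endoderm) had an unadjusted p under 0.05. Of all genes 4.41% and 2.5% were called. From 24 to 48 h Jun and Klf6 rose in both series, and Atf3 and Egr1 in the endoderm series. Jun (chr4:95049034-95052222, minus strand) was 10.4 and 9.48 CPM at 24 h and 21.7 and 48.1 at 48 h in the mesoderm series (log2 fold change 1.80 ± 0.30 SE, edgeR adjusted p = 0.000186). It was 6.90 and 8.94 and then 21 and 40.5 in the endoderm series (log2 fold change 1.95 ± 0.26 SE, edgeR adjusted p = 1.39e-05). Klf6 (chr13:5861482-5870394, plus strand), a factor of wound response and mesenchyme, was 36.1 and 36.7 and then 93 and 114 CPM (mesoderm, log2 fold change 1.51 ± 0.16 SE, edgeR adjusted p = 6.41e-07). It was 39.3 and 45.7 and then 70.2 and 111 (endoderm, log2 fold change 1.09 ± 0.19 SE, edgeR adjusted p = 0.000218). The 48 h libraries lay above those at 24 h for both genes in both series. In the endoderm series Atf3 was 3.34 and 3.64 and then 14.6 and 26.5 CPM (log2 fold change 2.55 ± 0.28 SE, edgeR adjusted p = 9.14e-07). Egr1 was 5.45 and 3.71 and then 12.7 and 19.6 (log2 fold change 1.82 ± 0.35 SE, edgeR adjusted p = 0.000614). These 2 called members of 9 in the mesoderm and 4 of 9 in the endoderm series compare with 4.16% and 3.88% of all genes.

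The 2 WT libraries at 48 h were far from equal in these genes. Replicate 2 was higher for 9 of 9 members in the mesoderm series (Egr2 not counted) and for 8 of 9 in the endoderm series, with Fos at 2.16 and 5.95 CPM and Jun at the values above. Without replicate 2 the mesoderm change of Jun was 1.13 on the log2 scale and lost its call, which was also lost without either library at 24 h. In the endoderm series the Jun call was lost in 1 of 4 such fits. Klf6 in the mesoderm series and Atf3 in the endoderm series were called without any one library, whereas Egr1 and Klf6 in the endoderm series were lost in 3 of 4 such fits. Junb (29.2 and 30.9 CPM at 48 h in the endoderm series, log2 fold change 0.96 ± 0.18 SE, edgeR adjusted p = 0.000557) and Klf10 (33.5 and 34.3, log2 fold change -0.89 ± 0.14 SE, edgeR adjusted p = 8.79e-05) passed the limit on p and not that on size. Klf10 was lowest at 48 h in both series, at 39.3 and 45 CPM in the mesoderm series.

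Undifferentiated Mtf2 null cells held more Atf3, Jun, Klf6 and Klf10 than WT, in the mean of 4 libraries against 4. Atf3 was 12.1 to 17.3 CPM in the 4 null libraries and 1.31 to 2.04 in WT (log2 fold change 3.28 ± 0.29 SE, edgeR adjusted p = 1.48e-11). Jun was 13.4 to 19.4 against 2.72 to 5.03 (log2 fold change 2.07 ± 0.27 SE, edgeR adjusted p = 5.56e-08). Klf6 was 66.7 to 76.1 against 17.6 to 23.1 (log2 fold change 1.77 ± 0.14 SE, edgeR adjusted p = 1.29e-12). Klf10 (chr15:38291463-38300706, minus strand) was 171 to 180.4 against 53.9 to 81.7 (log2 fold change 1.39 ± 0.12 SE, edgeR adjusted p = 5.89e-12). For each of the 4 genes every null library lay above every WT library, and the call held without any one of the 8 libraries and in each series alone. For Egr1 the ranges overlapped, at 4.95 to 5.94 against 5.15 to 6.60 CPM (log2 fold change -0.01, edgeR adjusted p = 0.987). Junb was lower, 27.3 to 34.5 against 38.8 to 48.4 CPM, with a log2 fold change of -0.49 and an edgeR adjusted p of 0.00328, short of both limits. Fos, Fosb and Ier2 were at 0.16, -0.23 and -0.14 on the log2 scale. The 4 of 10 members called, all higher, compare with 14.5% of all genes called in this comparison.

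Whether the undifferentiated libraries of the 2 series came from separate cultures is not given in the labels. Counts of the replicate 2 libraries of both series differed by a chi-square of 8.08 per degree of freedom in WT and 7.34 in Mtf2 null cells, less than the 11.5 and 12.2 between the 2 libraries of the mesoderm series. In labelled Jarid2 null cells both same-numbered pairs across the series (6.92 and 5.15) differed less than the 2 libraries of a series (9.92 and 8.03). The difference of replicate 1 and replicate 2 over 18017 genes correlated between the series in all 3 genotypes, at 0.22 in WT, 0.20 in Mtf2 null and 0.43 in labelled Jarid2 null cells. Libraries of the same number may thus share a sample, and p-values over 4 against 4 are then too small. With same-numbered libraries summed, 2 against 2, all 4 members were still called in Mtf2 null cells, at edgeR adjusted p-values of 6.47e-06 (Jun), 3.12e-09 (Klf6), 1.96e-09 (Klf10) and 7.53e-09 (Atf3). Other genes changed beside the members: of 20 other immediate early genes 6 rose (Btg1, Ccn1, Ccn2, Dusp1, Klf4 and Plk2) and 2 fell (Arc and Ier3). Of 10 other AP-1 genes 4 rose (Atf4, Fosl1, Jdp2 and Mafk), and of 11 ERK feedback genes 2 rose (Dusp4 and Dusp5) and 1 fell (Nab2). Of 8 heat-shock genes 2 fell (Dnajb1 and Hspa5). The medians of the first 3 lists were 0.46, 0.63 and 0.37, beside -0.05 over all genes. Lineage markers differed too. Endoderm markers summed to 9.79 to 16.5 CPM in the null and 1.28 to 2.37 in WT libraries with 2 of 4 called (Foxa2 and Sox17). Streak and mesoderm markers summed to 32.1 to 38.8 against 10.2 to 13.7 with 1 of 5 called (Gata4), and fibroblast markers to 5.02 to 5.91 against 8.52 to 11.7 nearly all of it Thy1 in WT (8.05 and 9.01 CPM in the means of the 2 series), with Col1a2, Col3a1, Dcn, Lum and Postn at or near 0. Their part in the differences of the members was not tested.

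Under induction Egr1 was higher in Mtf2 null than in WT cells at 5 and 24 h of both series. In the mesoderm series Egr1 at 5 h was 9.17 and 9.31 CPM in Mtf2 null and 1.99 and 1.78 in WT libraries (log2 fold change 2.29 ± 0.33 SE, edgeR adjusted p = 2.51e-05). Endoderm libraries had 13.3 and 11.4 against 1.39 and 1.51 (log2 fold change 3.09 ± 0.43 SE, edgeR adjusted p = 9.08e-06). At 24 h the values were 14.8 and 16.9 against 3.98 and 4.23 (mesoderm, log2 fold change 1.95 ± 0.28 SE, edgeR adjusted p = 3.22e-05). The endoderm values were 23.5 and 18.5 against 5.45 and 3.71 (log2 fold change 2.20 ± 0.34 SE, edgeR adjusted p = 4.41e-05). Both null libraries lay above both WT libraries in each of these 4 comparisons, from overlapping levels before induction. The call was kept in all 4 fits without a library at 5 h of the endoderm series, and lost in 1 at 5 h and 2 at 24 h of the mesoderm series and in 1 at 24 h of the endoderm series. At 48 h Egr1 was 19.1 and 14.2 against 4.05 and 9.21 CPM in the mesoderm series (log2 fold change 1.34 ± 0.27 SE, edgeR adjusted p = 0.000687), a call lost in 3 of 4 fits that left out a library. It was 11.4 and 7.61 against 12.7 and 19.6 in the endoderm series and not called (log2 fold change -0.76, edgeR adjusted p = 0.0689), the null libraries being the lower ones.

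Jun stayed above WT in Mtf2 null cells through 24 h. At 5 h it was 15.8 and 17.2 against 4.52 and 3.87 CPM (mesoderm, log2 fold change 1.97 ± 0.36 SE, edgeR adjusted p = 0.000261). In the endoderm series it was 17.7 and 17.7 against 4.25 and 4.52 (log2 fold change 2.01 ± 0.30 SE, edgeR adjusted p = 2.46e-05). At 24 h it was 27.3 and 31.1 against 10.4 and 9.48 (mesoderm, log2 fold change 1.56 ± 0.30 SE, edgeR adjusted p = 0.000715). The endoderm libraries had 36.2 and 30.3 against 6.90 and 8.94 (log2 fold change 2.06 ± 0.26 SE, edgeR adjusted p = 3.63e-06). No library of the 2 genotypes overlapped. The mesoderm calls of Jun were lost when any 1 of the 4 libraries was left out, at adjusted p-values of 0.00145 to 0.00679 (5 h) and 0.00328 to 0.0163 (24 h), and the endoderm call at 24 h was kept in all 4. The endoderm call at 5 h was lost without WT replicate 1 (adjusted p = 0.0012) and kept in the other 3 fits. At 48 h Jun was not called, at 58.1 and 54.4 against 21.7 and 48.1 CPM in the mesoderm series, where the null libraries were still the higher ones. Klf6 and Klf10, high before induction, were no longer called: Klf10 at 5 h was 105 and 107 against 104 and 108 CPM and Klf6 43.3 and 46.8 against 33.9 and 27.1. Egr1 and Jun were the 2 of 9 members called at 5 and 24 h in each series, 1 of 9 was called at 48 h in the mesoderm series and 0 of 9 in the endoderm series, where 6 had an unadjusted p under 0.05 and DESeq2 called 0. DESeq2 added Atf3 at 24 h of the endoderm series. The shares of all genes called were 7.56%, 5.72% and 6.82% at 5, 24 and 48 h in the mesoderm series, and 7.61%, 6.58% and 10.5% in the endoderm series.

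Ier2 ran the other way. It was 62.4 and 70.9 CPM in Mtf2 null and 112 and 105 in WT libraries at 24 h of the mesoderm series (log2 fold change -0.70, edgeR adjusted p = 0.00109). It was 57.9 and 55.1 against 96.1 and 102 at 48 h of the endoderm series (log2 fold change -0.81 ± 0.11 SE, edgeR adjusted p = 7.86e-06). Its null libraries were the lower ones at 5 and 24 h in the mesoderm series and at 5, 24 and 48 h in the endoderm series, by less than the limit on size. Of 8 heat-shock genes 1 rose at 5 h in each series, the abundant chaperone Hspa8, and the list had a median log2 fold change of 0.39 (mesoderm) and 0.37 (endoderm), beside -0.01 and -0.02 over all genes. Their summed level was 9552 and 9446 CPM in Mtf2 null and 6691 and 6220 in WT libraries at 5 h of the mesoderm series. It was 9440 and 9791 against 6608 and 6600 in the endoderm series. Endoderm markers summed to 9.52 and 8.32 against 3.07 and 3.55 CPM at 5 h of the mesoderm series. The part of either list in the differences of Egr1, Jun and Ier2 was not tested.

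**Figure D2:**
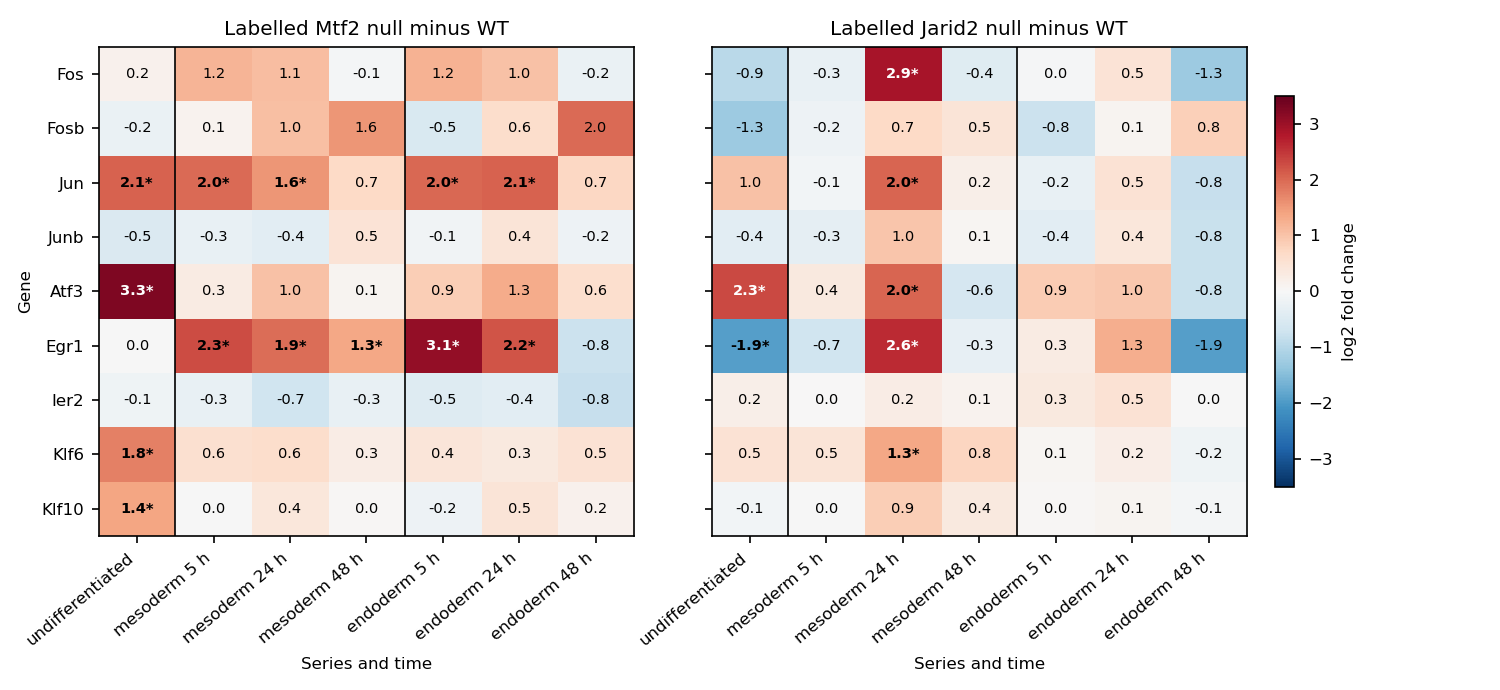
Log2 fold changes of 9 immediate early genes (rows) in Mtf2 null and in labelled Jarid2 null libraries against WT, for undifferentiated cells of both series together and for each series and time (columns); an asterisk marks a called gene. In Mtf2 null cells Atf3, Klf6 and Klf10 are called before induction and Egr1 after it, while 5 genes are called together at 24 h of the mesoderm series in libraries labelled Jarid2 null.

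The early change itself was compared between genotypes with an interaction contrast, the change from undifferentiated to 5 h in Mtf2 null minus that in WT. The change of Klf10 was more negative in the null cells, from 173 and 171 to 105 and 107 CPM in the mesoderm series, where WT went from 75.2 and 53.9 to 104 and 108 (log2 fold change -1.42 ± 0.25 SE, edgeR adjusted p = 0.000608). In the endoderm series the null cells went from 178 and 180.4 to 71.5 and 76 (log2 fold change -1.53 ± 0.19 SE, edgeR adjusted p = 1.66e-05). The null groups did not overlap between the 2 times. The endoderm call was kept without any 1 of the 8 libraries, and the mesoderm call was lost in 7 of 8 such fits. Atf3 in the endoderm series, 14.6 and 16.9 and then 9.63 and 9.77 CPM in null cells, differed as well (log2 fold change -2.65 ± 0.47 SE, edgeR adjusted p = 0.00057), a call lost in all 8 fits with a library left out. Its mesoderm contrast (log2 fold change -2.76 ± 0.52 SE, edgeR adjusted p = 0.00127) and those of Egr1 (log2 fold change 2.43 ± 0.45 SE, edgeR adjusted p = 0.0012 in the mesoderm, log2 fold change 2.97 ± 0.58 SE, edgeR adjusted p = 0.00125 in the endoderm series) missed the limit on p under edgeR, and DESeq2 called them. The same held for Klf6, more negative in the null cells (log2 fold change -1.15 ± 0.23 SE, edgeR adjusted p = 0.00209 in the mesoderm, log2 fold change -1.39 ± 0.28 SE, edgeR adjusted p = 0.0015 in the endoderm series). 1 of 9 members in the mesoderm and 2 of 9 in the endoderm series were called, against 2.09% and 2.66% of all genes.

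Undifferentiated libraries labelled Jarid2 null had more Atf3 and less Egr1 than the same WT libraries. Atf3 was 5.84 to 9.62 against 1.31 to 2.04 CPM (log2 fold change 2.32 ± 0.30 SE, edgeR adjusted p = 9.38e-07). Egr1 was 1.29 to 1.91 against 5.15 to 6.60 (log2 fold change -1.92 ± 0.31 SE, edgeR adjusted p = 2.68e-05). The 4 libraries of each group did not overlap for either gene. Jun, at 6.07 to 8.53 against 2.72 to 5.03 CPM, missed the limit on p (log2 fold change 1.03, edgeR adjusted p = 0.00776), and DESeq2 called it. In each series alone, with 2 libraries against 2, Egr1 was not called (adjusted p = 0.00362 and 0.00828 for mesoderm and endoderm), nor was Atf3 in the mesoderm series (0.00401). With same-numbered libraries of both series summed, Atf3 was called (edgeR adjusted p = 6.96e-05) and Egr1 was not (0.00102). The 2 of 10 members called compare with 1.31% of all genes. Mtf2 null and labelled Jarid2 null libraries were set against the same WT libraries, so that their differences share those values.

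At 24 h of the mesoderm series 5 members were higher in libraries labelled Jarid2 null. Egr1 was 29.1 and 21.1 CPM against 3.98 and 4.23 in WT (log2 fold change 2.61 ± 0.28 SE, edgeR adjusted p = 9.81e-06). Fos was 8.47 and 5.14 against 0.723 and 1.09 (log2 fold change 2.88 ± 0.46 SE, edgeR adjusted p = 0.00025). Jun was 54 and 27.6 against 10.4 and 9.48 (log2 fold change 2.05 ± 0.30 SE, edgeR adjusted p = 0.000126). Atf3 was 23.5 and 19 against 5.33 and 5.11 (log2 fold change 2.03 ± 0.33 SE, edgeR adjusted p = 0.000272). Klf6 was 111 and 73 against 36.1 and 36.7 (log2 fold change 1.34 ± 0.16 SE, edgeR adjusted p = 2.09e-05). All 4 libraries kept their order for these 5 genes, but replicate 1 of the labelled Jarid2 null pair was the higher one for 8 of 9 members. Egr1 was called without any 1 of the 4 libraries. The other 4 were lost without replicate 1 of the labelled Jarid2 null libraries and without either WT library. The count over all genes went from 362 to between 27 and 63 in those fits. Fos had no adjusted p under DESeq2, which called the other 4 and Junb. The 5 of 9 members called compare with 1.97% of all genes.

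Related genes moved in these libraries as well. Of 20 other immediate early genes 6 rose, among them Gadd45b (log2 fold change 2.17 ± 0.33 SE, edgeR adjusted p = 0.000156) and the matricellular Ccn1 (2.11 ± 0.29 SE, edgeR adjusted p = 7.15e-05), and 2 fell, Klf2 and Myc. Of 10 other AP-1 genes 2 rose (Maff and Mafk), and of 11 ERK feedback genes 1 rose, the ERK phosphatase Dusp4. The heat-shock genes Hspa1a (3.51 ± 0.46 SE, edgeR adjusted p = 5.43e-05) and Hspa1b (2.96 ± 0.42 SE, edgeR adjusted p = 8.8e-05) rose, 2 of 8 on that list, with a summed level of 8022 and 6389 CPM against 6843 and 6522 in WT. Medians were 0.29 for the other immediate early genes and 0.12 for the heat-shock genes, beside -0.04 over all genes. The part of the heat-shock genes in the differences of the members was not tested.

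At 24 h of the endoderm series Egr1 was 5.69 and 16.4 CPM in libraries labelled Jarid2 null and 5.45 and 3.71 in WT (log2 fold change 1.28 ± 0.35 SE, edgeR adjusted p = 0.155), with replicate 2 of the former apart from the other 3. Whether this differed from the mesoderm series was not tested. At 48 h of the endoderm series Egr1 was 5.24 and 3.20 against 12.7 and 19.6 (log2 fold change -1.94 ± 0.35 SE, edgeR adjusted p = 0.00264), which DESeq2 called as lower. In the mesoderm series at 48 h Egr1 libraries overlapped, at 5.31 and 5.47 against 4.05 and 9.21 CPM. Klf6 was 168 and 183 against 93 and 114 (log2 fold change 0.76 ± 0.15 SE, edgeR adjusted p = 0.00728), short of both limits. At 5 h 0 of 9 members were called in the mesoderm series, 0 by DESeq2 and 1 at an unadjusted p under 0.05, in a comparison that called 0% of all genes (12 genes by DESeq2, 2672 at an unadjusted p under 0.05). Likewise 0 of 9 were called in the 48 h comparison of the mesoderm series (0.169% of all genes), and at 5, 24 and 48 h of the endoderm series (0.0363%, 0.0312% and 0.125%), with 1, 2, 4 and 5 members at an unadjusted p under 0.05 and, apart from Egr1, 0 by DESeq2. The early change in libraries labelled Jarid2 null differed from that of WT for 0 of 9 members in either series, 0 by DESeq2, 1 and 3 at an unadjusted p under 0.05, against 0% and 0.0883% of all genes.

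Across the 24 libraries of a series, which share genotypes and times and are not independent, some pairs of members correlated strongly and others weakly. Pearson's r of log2 CPM was 0.84 (mesoderm) and 0.92 (endoderm) for Fos and Egr1, 0.88 (mesoderm) and 0.86 (endoderm) for Jun and Klf6, and 0.88 (mesoderm) and 0.78 (endoderm) for Fos and Jun. Ier2 ran against Jun, at -0.60 (mesoderm) and -0.67 (endoderm). Klf10 was nearly unrelated to Egr1, at -0.02 (mesoderm) and -0.17 (endoderm). Egr1 and Klf6 were at 0.50 (mesoderm) and 0.49 (endoderm). Fos and Fosb were at 0.35 (mesoderm) and 0.33 (endoderm), and Jun and Junb at 0.14 (mesoderm) and 0.20 (endoderm). The 5 genes outside the list most like Fos, by the lower of the 2 correlations, were Ythdc2 (0.789), Gab2 (0.773), Fmn1 (0.767), Btg2 (0.767) and Pgrmc1 (0.761). Those most like Egr1 were Rnf217 (0.788), Nrip3 (0.775), Ier5 (0.763), Ccdc71l (0.758) and Ppp1r26 (0.757). Btg2 and Ier5 are themselves immediate early genes, and both sets are descriptions over these libraries.

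In the 3 WT lines of the bulk embryoid bodies, Fos and Fosb fell between day 0, a monolayer, and day 2, and Jun, Atf3 and Klf6 rose by day 4. Culture format and time cannot be told apart in the first step. Each line and day was taken as 1 sample, with its columns summed, so the lines stand in for replicates. The limit for a call was a limma adjusted p (Benjamini-Hochberg) below 0.05, with no limit on the fold change. Fosb (chr7:19302696-19310051, minus strand) was 3.25 to 17.9 CPM at day 0 and 0.372 to 0.863 at day 2 (log2 fold change -3.56 ± 0.54 SE, limma adjusted p = 0.0127). Fos (chr12:85473890-85477273, plus strand) was 8.36 to 14.6 and then 2.23 to 4.89 (log2 fold change -1.80 ± 0.33 SE, limma adjusted p = 0.0158). Jun fell less, 5.66 to 24.5 and then 2.98 to 10.7 CPM with overlapping ranges between lines (log2 fold change -0.90 ± 0.21 SE, limma adjusted p = 0.0262). Ier2 rose, from a range of 24.6 to 69 at day 0 to a range of 49.4 to 104 at day 2 (log2 fold change 0.73 ± 0.20 SE, limma adjusted p = 0.0419). All 3 lines moved the same way for each of these 4 genes. From day 2 to day 4 Jun reached 28.4 to 79.2 CPM (log2 fold change 3.02 ± 0.21 SE, limma adjusted p = 0.000102). Klf6 was 19.1 to 51.5 at day 2 and 80.3 to 228 at day 4 (log2 fold change 2.19 ± 0.15 SE, limma adjusted p = 9.2e-05). Atf3 was 0.620 to 1.92 and then 2.40 to 11.3 (log2 fold change 2.40 ± 0.46 SE, limma adjusted p = 0.00666). Fos and Fosb rose again (log2 fold changes 1.19 and 1.68, limma adjusted p = 0.0255 and 0.0423) and Egr1 fell, being 39.9 to 70.6 CPM at day 2 and 24 to 34.6 at day 4 (log2 fold change -0.89 ± 0.23 SE, limma adjusted p = 0.0204).

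The 4 of 9 members called from day 0 to 2 and 6 of 9 from day 2 to 4 compare with 12.7% and 28.3% of all genes. From day 4 to 7 0 of 9 were called, 0 by edgeR and 2 at an unadjusted p under 0.05, against 0.0961% of all genes. The calls depended on single lines. Without Pcl1-3 all 4 calls of days 0 to 2 were lost (limma adjusted p = 0.0692 for Fos, 0.0613 for Fosb, 0.0995 for Jun and 0.119 for Ier2), as were those of Fos and Fosb at days 2 to 4 (0.0544 and 0.142). Without J1 Jun at days 0 to 2 (0.0686) and Egr1 at days 2 to 4 (0.0773) were lost. Without JM8 the 3 comparisons called 0, 35 and 0 genes in all, and of the members only Jun and Klf6 between days 2 and 4 kept their calls. Other immediate early genes rose from day 2 to day 4 (8 of 19 tested, with 1 lower, Klf4), while 4 of 6 pluripotency markers fell and 2 of 5 streak and mesoderm markers rose. The part of those markers in the members' differences was not tested.

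Samples labelled Mtf2 null had higher Jun, Junb, Ier2, Klf6 and Atf3 than their WT line Pcl1-3 over the 4 days. Junb was 31.7, 45.2, 26 and 34.8 CPM at days 0, 2, 4 and 7 in the null and 8.70, 11.4, 14.9 and 16.5 in Pcl1-3 (log2 fold change 1.39 ± 0.30 SE, limma adjusted p = 0.0037). Jun was 14.5, 13.8, 46.4 and 71.9 against 5.66, 2.98, 28.4 and 29.3 (log2 fold change 1.34 ± 0.33 SE, limma adjusted p = 0.00756). Ier2 was 146, 138, 57.9 and 44.5 against 24.6, 49.4, 35.7 and 37.2 (log2 fold change 1.22 ± 0.25 SE, limma adjusted p = 0.0022). The null sample was the higher one on each of the 4 days for all 3 genes. Atf3 was 4.03, 2.95, 5.03 and 13.8 against 1.82, 0.620, 2.40 and 2.44 (log2 fold change 1.59 ± 0.40 SE, limma adjusted p = 0.0102). Klf6 was 35.6, 48.8, 145 and 134 against 22.6, 19.1, 80.3 and 93.7 (log2 fold change 0.81 ± 0.20 SE, limma adjusted p = 0.0072), again higher on every day. The other WT lines had more: Jun in J1 was 24.5, 10.7, 79.2 and 83 and in JM8 10.3, 6.45, 56.3 and 70.7, and Pcl1-3 was the lowest of the 3 WT lines in the mean over days for all 5 genes. Line and genotype cannot be told apart here. All 5 were called without day 0 and without day 4. Jun, Klf6 and Atf3 lost their calls without day 2 (limma adjusted p = 0.0607, 0.0951 and 0.0642), and Jun and Atf3 without day 7. Mtf2 RNA itself was lower in the labelled null samples than in Pcl1-3 on each day, and still 166 to 317 CPM. The 5 of 10 members called compare with 18.4% of all genes.

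Samples labelled Jarid2 null gave no call against JM8 for any member over the 4 days (0 of 10 called, 0 by edgeR, 1 at an unadjusted p under 0.05, with 14.9% of all genes called). Samples labelled Eed null gave none against J1 (0 of 10, 0 by edgeR, 0 at an unadjusted p under 0.05, with 10.9% of all genes). Single days stood out and were not tested, since the columns of a line and day had been summed to 1 sample. Fos at day 0 was 37.9 CPM in the Eed null and 14.6 in the J1 sample, and 29.1 in the labelled Jarid2 null and 8.36 in the JM8 sample. Egr1 at day 0 was 42.3 CPM in the Eed null and 55.1 in the J1 sample, and the Eed null sample was the lower one on each later day too. Ier2 at day 2 was 231 in the labelled Jarid2 null sample, the highest of the 24, and 97.7 in JM8. By day 7 Jun ranged from 29.3 (Pcl1-3) to 99.5 (Eed null) over the 6 lines.

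**Figure D3:**
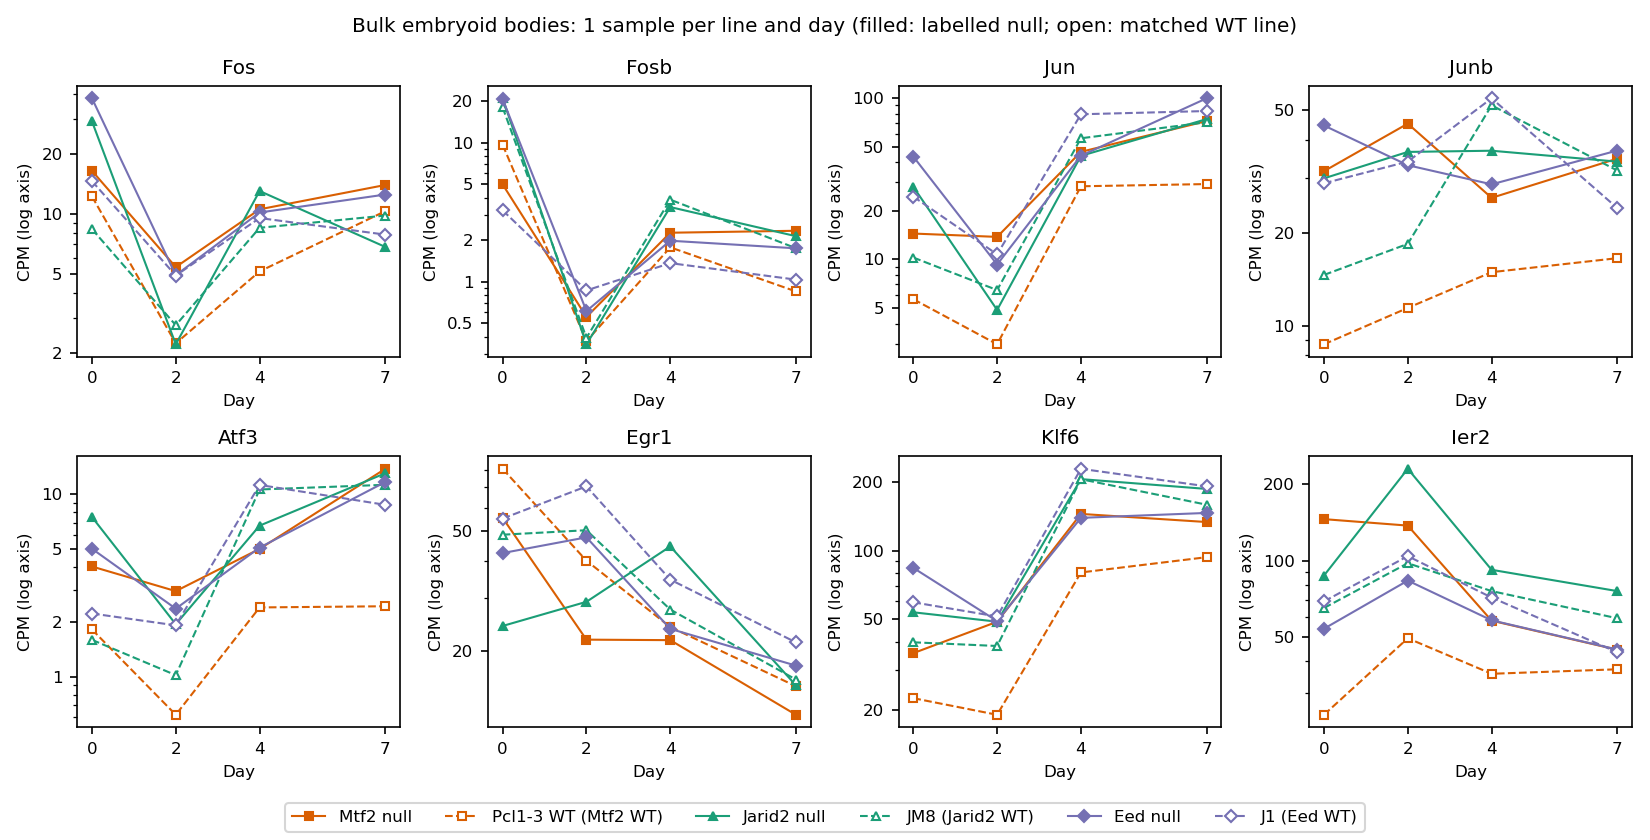
CPM (log axis) of 8 immediate early genes in the bulk embryoid bodies against day, 1 sample per line and day, filled symbols for labelled null lines and open symbols with dashed lines for their WT lines. Fos and Fosb are lowest at day 2 in all 6 lines, Jun, Klf6 and Atf3 climb by day 4, and Pcl1-3 (open squares) is the lowest line for Jun, Junb, Ier2, Klf6 and Atf3 on most days.

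Single cells of embryoid bodies gave 1 library per genotype and day, so a single day has no replicate. Per the study's methods, embryoid bodies were dissociated with Accutase and viable cells were sorted before lysis. Responses of these genes to that handling cannot be told apart from their levels in the embryoid bodies. Over the 4 days, each null genotype was compared with WT by edgeR on UMIs summed per library with day as a block, a test added after seeing the data, with an adjusted p below 0.05 as the limit. It leaves 9 residual degrees of freedom. In Mtf2 null cells 0 of 9 members tested were called (3 at an unadjusted p under 0.05), against 5.44% of all genes. In Jarid2 null cells 1 of 9 was called, Junb, against 10.4% of all genes, and in Eed null cells 2 of 9, Jun and Klf10, against 14.9%. All 16 libraries used the same 384 well barcodes, so a cell is known by its library and well together. Levels are a gene's UMIs as CPM of all UMIs of the library (UMI CPM), with exact 95% Poisson intervals that cover counting error only. Jun was higher at day 10 than at day 0 in all genotypes, in WT from 7.36 (95% interval 4.61 to 11.1) at day 0 to 114 (95% interval 96.7 to 133) at day 10. At day 0 it was 20.3 in Mtf2 null (2.76 times WT, interval 1.70 to 4.65) and 21.8 in Jarid2 null cells (2.96 times WT, interval 1.81 to 5.02). In Eed null cells Jun was 128 at day 7 (3.03 times WT, interval 2.38 to 3.87) and 228 at day 10 (2.00 times WT, interval 1.65 to 2.44). Intervals of the Eed null and WT libraries did not overlap on days 4, 7 and 10, and over the 4 days the log2 fold change was 1.08 ± 0.34 SE (edgeR adjusted p = 0.0409), a call lost without day 4, 7 or 10 (adjusted p = 0.142, 0.151 and 0.0575). At day 10 Mtf2 null (98.2) and Jarid2 null (103) cells were close to WT. Over the days their Jun differed from WT by 0.64 ± 0.34 SE (Mtf2 null, edgeR adjusted p = 0.322) and 0.43 ± 0.35 SE (Jarid2 null, adjusted p = 0.464) on the log2 scale. Between these libraries median depth ran from 4997 to 10603 UMIs per cell, and 1 library per group cannot separate genotype from plate.

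Eed null cells had high Egr1 and Fos already at day 0, whereas the bulk day 0 sample labelled Eed null was above J1 for Fos and not for Egr1. Egr1 was 101 (95% interval 90.9 to 113) against 37.8 (95% interval 31.2 to 45.4) in WT (2.68 times WT, interval 2.16 to 3.34), with 57 of the 344 UMIs in 1 cell. Fos was 24.7 (95% interval 19.7 to 30.6) against 8.03 (95% interval 5.14 to 11.9), or 3.08 times WT, interval 1.94 to 5.07. The surplus of Egr1 was also present at day 7 (1.91 times WT, interval 1.58 to 2.32) but was not at day 10 (0.832 times WT, interval 0.676 to 1.02). Over the 4 days neither Egr1 (log2 fold change 0.63 ± 0.26 SE, edgeR adjusted p = 0.125) nor Fos (log2 fold change 0.68 ± 0.30 SE, edgeR adjusted p = 0.14) was called in Eed null cells, and both were without day 10 (adjusted p = 0.0347 and 0.0417). Mtf2 null and Jarid2 null cells lay below WT in Fos at day 0 (3.60 and 3.43) and day 7 (17.5 and 17.8 against 41), and over the days Fos in Mtf2 null cells was at -0.98 ± 0.31 SE on the log2 scale (edgeR adjusted p = 0.0839), called only without day 10 (0.0341). Jarid2 null cells were also low in Egr1 at day 7 (0.406 times WT, interval 0.296 to 0.552), where the Mtf2 null interval held WT (1.03 times WT, interval 0.831 to 1.28).

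Junb was lower than in WT in Mtf2 null and Jarid2 null cells on every day. At day 4 it was 113 (95% interval 99.6 to 129) in WT, 65.1 (95% interval 55.9 to 75.4) in Mtf2 null and 52.7 (95% interval 44.1 to 62.5) in Jarid2 null cells, and at day 10 the values were 118, 68.1 and 66.8. Over the 4 days Junb was below WT, with a log2 fold change of -0.86 ± 0.19 SE in Jarid2 null cells (edgeR adjusted p = 0.0097), a call lost without day 4 (0.0977), and the Mtf2 null difference missed the limit (log2 fold change -0.64 ± 0.19 SE, edgeR adjusted p = 0.0578). Klf6 had its highest library in Mtf2 null cells at day 7, 404 (95% interval 379 to 430.5) against 233 (95% interval 213 to 254) in WT (1.74 times WT, interval 1.56 to 1.94), and was near WT at day 0 (0.902 times WT, interval 0.778 to 1.05). Among the day 0 libraries Klf10 was lowest in Eed null cells, 84.5 (95% interval 75 to 94.9) against 167 (95% interval 153 to 182), or 0.506 times WT, interval 0.436 to 0.587, and WT stood at 60.1 at day 10. Over the days Klf10 was lower in Eed null cells (log2 fold change -0.56 ± 0.18 SE, edgeR adjusted p = 0.0435), a call lost without day 0, 4 or 10 (adjusted p = 0.206, 0.214 and 0.0575). Ier2 stayed within 35.7 to 85.8 over the 16 libraries. Fosb counted 93 UMIs in all and Egr2 38, too few for an order: Egr2 was 0 in 5 libraries, where its upper interval bound reached at most 1.94. Atf3 counted 160. At day 7 it had 26 UMIs in Mtf2 null (4.59 times WT, interval 1.73 to 15.3) and 22 in Eed null cells (3.97 times WT, interval 1.47 to 13.4), against 5 in WT. The intervals of all null genotypes at days 0 and 10 held WT. Over the days Atf3 was not called in Mtf2 null (edgeR adjusted p = 0.371) or Eed null cells (edgeR adjusted p = 0.129).

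**Figure D4:**
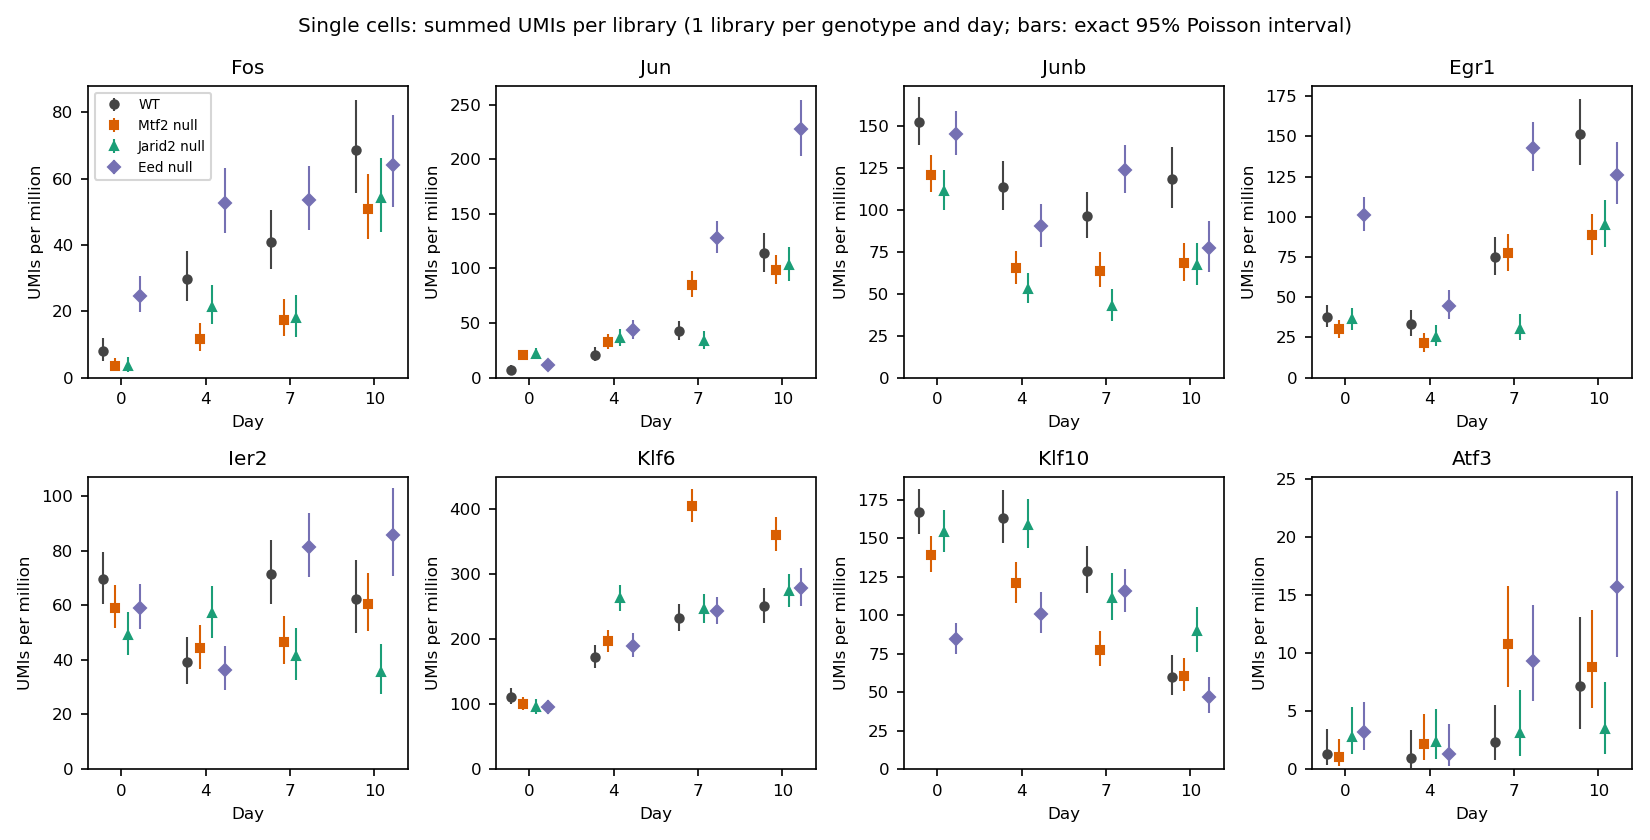
UMI CPM of 8 immediate early genes in the 16 single-cell libraries against day, 1 point per genotype and day with its exact 95% Poisson interval. Jun is higher at day 10 than at day 0 in every genotype, Eed null cells stand above the rest for Jun at days 7 and 10 and for Egr1 at day 0, and Klf6 is highest in Mtf2 null cells at days 7 and 10.

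The authors' 22 clusters were built from expression in the same cells, so that differences between them are in part built in. They are described without a test, and the limit from dissociation and sorting holds for them too. Cluster 11, 240 cells of which 143 were Mtf2 null and 86 Jarid2 null, had the most Klf6, 801, 95% interval 753 to 852, beside 199 in the median cluster. Cluster 19, 57 cells mostly of day 10, had the most Jun (347, 95% interval 293 to 407) and Atf3 (37.7, 95% interval 21.6 to 61.3). Cluster 18 had the most Egr1 (234, 95% interval 203 to 269), followed by cluster 16 (182, 95% interval 158 to 209), and cluster 4 the most Fos (95.3, 95% interval 82.8 to 109). Early clusters were poorest in Jun, at 6.80 in cluster 3 (311 of 335 cells WT) and 9.40 in cluster 5 (251 of 315 Jarid2 null). Egr1 was lowest in cluster 17 (6.24) and Klf10 in cluster 13 (31.7). The clusters that were rich in Jun were late ones, with 193 of the 226 cells of cluster 13 (209) from day 10.

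Within a cluster the genotypes still differed in places. In cluster 4 Jun was 145 (interval 119 to 175) in 122 WT and 61.8 (interval 48.2 to 78.1) in 159 Mtf2 null cells, and Egr1 was 164 (interval 136 to 196) and 94.5 (interval 77.5 to 114), WT being higher for both. In cluster 11 Klf6 had overlapping intervals in Mtf2 null, 796 (interval 737 to 858), and Jarid2 null cells, 781 (interval 696 to 875). Those cells come from other days and plates in each genotype, and the intervals cover counting error only.

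**Figure D5:**
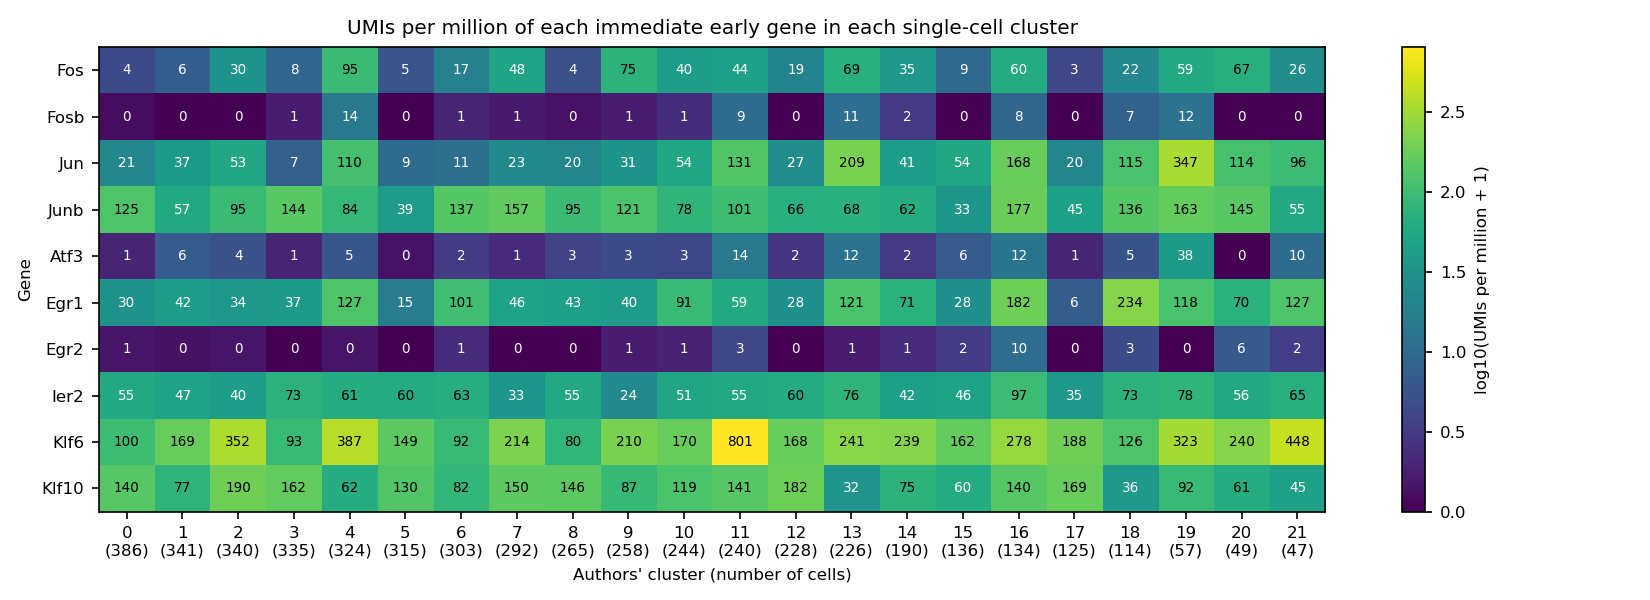
UMI CPM (printed, with the color on a log10 scale) of the 10 immediate early genes (rows) in the authors' 22 single-cell clusters (columns, cell numbers in parentheses). Klf6 peaks at 801 in cluster 11, Jun at 347 and Atf3 at 38 in cluster 19, and Egr1 at 234 in cluster 18, while Fosb and Egr2 stay at 14 or less.

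The state before differentiation was measured in all 3 experiments, in separate libraries that share cell lines at most, and each has its own scale. Jun in libraries labelled Mtf2 null was above their WT each time: 13.4 to 19.4 against 2.72 to 5.03 CPM in monolayers, 14.5 against 5.66 CPM at day 0 of the bulk embryoid bodies and 20.3 against 7.36 UMI CPM in single cells. This was not particular to Mtf2 null. Libraries labelled Jarid2 null had 6.07 to 8.53 CPM in monolayers, 28.2 against 10.3 in bulk embryoid bodies and 21.8 UMI CPM in single cells. Labelled Eed null samples had 43.4 against 24.5 CPM in bulk embryoid bodies. In single cells Eed null had 11.5 UMI CPM, with an interval of its ratio to WT (0.903 to 2.76) that held 1. Klf6 was higher in libraries labelled Mtf2 null in the first 2 experiments and not in single cells, with 66.7 to 76.1 against 17.6 to 23.1 CPM in monolayers, 35.6 against 22.6 in bulk embryoid bodies and 101 against 111 UMI CPM in single cells. Klf10 was 171 to 180.4 against 53.9 to 81.7 CPM in monolayers, 142 against 133 in bulk embryoid bodies and 139 against 167 in single cells, higher in the null only in the first 2 experiments. Egr1 was lower in libraries labelled Jarid2 null in monolayers (1.29 to 1.91 against 5.15 to 6.60 CPM) and at day 0 of the bulk embryoid bodies (24.2 against 48.7), and level in single cells (36.1 against 37.8). Atf3, the largest of the monolayer differences in Mtf2 null cells (12.1 to 17.3 against 1.31 to 2.04 CPM), was 4.03 against 1.82 in bulk embryoid bodies and 1.03 against 1.34 UMI CPM in single cells, with 4 UMIs in each library. Junb in Mtf2 null libraries was lower in monolayers (27.3 to 34.5 against 38.8 to 48.4 CPM) and single cells (121 against 152), and higher in bulk embryoid bodies (31.7 against 8.70). Ier2 in Mtf2 null libraries overlapped WT in monolayers (88.6 to 107 against 97.1 to 124 CPM). It was higher in bulk embryoid bodies (146 against 24.6) and lower in single cells (59.1 against 69.6). Fos in libraries labelled Jarid2 null was higher in bulk embryoid bodies (29.1 against 8.36) and lower in single cells (3.43 against 8.03). At day 0 of the bulk embryoid bodies the 3 WT lines spanned 5.66 to 24.5 CPM for Jun and 22.6 to 59.4 for Klf6. For Klf10 they spanned 116 to 158. The sample labelled Mtf2 null lay within these ranges, and above those of Atf3 (1.60 to 2.23) and Junb (8.70 to 28.9). Mtf2 itself was 317 CPM in that sample and 409 in Pcl1-3. At this stage only the monolayer differences were tested.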

How the data were processed

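RNA was sequenced from 48 directed-differentiation libraries (2 series of 24), 24 bulk embryoid body samples and 16 single-cell libraries. Per the study's methods, the authors quantified bulk reads with Salmon and deposited estimated counts per gene for the directed series, which were rounded here. The deposited bulk embryoid body values were a signal, counts divided by a size factor per column, from which whole reads were recovered in 45 of 46 columns, with 100% of values in these columns within 0.02 of a whole read, and columns of a line and day were summed. Day 0 there was a monolayer, and the column without whole reads was left out. For single cells the authors used Bowtie2 and HTSeq and deposited UMI counts of the cells that passed their filters, with clusters. Versions of Salmon, Bowtie2 and HTSeq are not given in the sources used here.

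Genes of the directed series were tested with edgeR 4.0.16 in R 4.3.3 (quasi-likelihood, TMM scaling, filterByExpr, all libraries of a series fitted together, both series for undifferentiated cells) and the embryoid bodies with limma 3.58.1 on log2 CPM (prior count 2, genes at 1 CPM in 4 samples, day or line as a block). P-values were adjusted by Benjamini-Hochberg over all genes tested, 18361 (mesoderm), 19261 (endoderm), 19601 (both) and 15818 or 14564 (embryoid bodies). UMIs summed per single-cell library were tested with edgeR over 12208 genes (genotype, day as a block). DESeq2 1.42.0 was an alternative. On data drawn with known changes for the WT mesoderm comparison of 5 h, edgeR recovered 95% of 2.5-fold and 100% of 4-fold changes with 1 false call over 18361 genes. The changed genes lay above a minimum mean count, and all genes were drawn with the same spread. Recovery of low genes such as Fos and Fosb, or of genes with a larger spread, was therefore not measured. The members and gene lists were chosen with earlier results of these data known. All 10 members are named, the genes of other lists by the largest changes at 5 h in WT (at most 3 per direction), and the called genes of other lists named in further comparisons were chosen after their values were seen. Fitted fold changes of low genes depend on the prior count, and intervals on UMIs cover counting error only.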

Additional observations from a re-analysis of the deposited data

Results flagged for a closer look

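In undifferentiated WT libraries Egr1 had 1 library apart, its gap to the nearest of the other 3 being 0.831 of the range, and Klf6 in undifferentiated Mtf2 null libraries likewise (0.852). The limit for 4 samples is 0.829, and 30 groups were tested, of which chance passes about 1 in 20.

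The change from undifferentiated to 5 h differed between Mtf2 null and WT cells by -1.42 (Klf10, mesoderm series), -1.53 (Klf10, endoderm series) and -2.65 (Atf3, endoderm series) on the log2 scale. Egr1 in libraries labelled Jarid2 null was 2.61 above WT at 24 h of the mesoderm series and -1.92 when undifferentiated, opposite directions whose difference was not tested.

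The 801 wells with UMIs on fewer than 500 genes, left out of the single-cell values, held 166482 UMIs on the 15830 genes of the UMI table. In these wells Fos was 30.0333 UMI CPM, Jun 138, Junb 180.2, Egr1 84.1, Ier2 54.1, Klf6 282 and Klf10 114, beside 28.7, 53.5, 99.1, 63.8, 55.8, 204 and 117 in wells at or over that limit, where counts of 5 (Fos) to 47 (Klf6) UMIs limit the former.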

How the results depend on the processing

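Of 51 called results for a member, 15 were called under every alternative and 36 were lost under at least 1, and no result changed direction. The replicate number as a block changed 1 call of a member, Jun in Mtf2 null cells at 24 h of the mesoderm series (log2 fold change 1.56, edgeR adjusted p = 0.00112). Numbers did not pair the libraries, since correlations of deviations ran from -0.18 to 0.27 (mesoderm) and -0.16 to 0.20 (endoderm) over 66 pairs each. Among single-cell levels, 0 of 160 moved beyond their interval when all wells with at least 500 genes were used, and 34 when shares were averaged over cells, which took the summed level of the 10 members from 657 to 719.98 UMI CPM. With all wells and, chosen after seeing the data, all genes of a library in the total, of which the genes of the UMI table hold 73.2 to 86.7% of UMIs, 86 moved and the sum was 532.

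Counts of called genes moved with the filter, the tool and the samples. With no filter on low counts they were 1170 (759 with it; WT mesoderm series 5 h), 672 (405; WT endoderm series 5 h), 785 (384) and 868 (513) for the early change of Mtf2 null cells (mesoderm and endoderm), and 78 (1) for the WT change between series. For labelled Jarid2 null libraries they were 175 (0), 736 (362), 147 (31) and 347 (0) at 5, 24 and 48 h and for the early change of the mesoderm series, and 64 (7), 74 (6), 166 (24) and 165 (17) in the endoderm series. DESeq2 gave 12, 48 and 75 (5 h, 48 h and early change, mesoderm) and 11, 12, 59 and 57 (endoderm). Each series alone, chosen after seeing the data, gave 68 (mesoderm) and 143 (endoderm) in place of 256 for undifferentiated labelled Jarid2 null libraries, and same-numbered libraries of both series summed gave 169. Single cells, tested over days after seeing the data, gave 262, 214 and 350 (664; Mtf2 null), 717, 475 and 599 (1273; Jarid2 null) and 1015, 920 and 1103 (1825; Eed null) without day 0, 4 and 7.

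In the embryoid bodies, leaving out the block gave 643 (2913; Mtf2 null), 541 (2351; labelled Jarid2 null) and 171 (1725; labelled Eed null), and 53 (1855), 1552 (4118) and 1 (14) for days 0 to 2, 2 to 4 and 4 to 7. Without day 2 the last 2 genotypes gave 1075 and 702, without day 4 the 3 gave 1057, 756 and 285, and without day 7 1197, 1101 and 657. No filter gave 1053 (days 0 to 2) and 37 (days 4 to 7), and edgeR 26 (days 4 to 7). Without Pcl1-3 the days gave 323 (0 to 2) and 242 (4 to 7), without J1 888 and 35, and without JM8 0, 35 and 0.

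Leaving out 1 library at a time gave 271 to 1212 (WT mesoderm 5 h), 410 to 502 (24 h), 437 to 628 (48 h), 125 to 734 (WT endoderm 5 h) and 228 to 302 (24 h) genes. Both extremes at 5 h came without undifferentiated WT replicate 2 (lowest) and 1 (highest). Mtf2 null cells gave 692 to 749 (24 h, mesoderm), and 164 to 554 (mesoderm) and 251 to 699 (endoderm) for the early change, for which leaving out libraries was chosen after seeing the data. Labelled Jarid2 null libraries gave 0 to 1, 27 to 497, 10 to 23 and 0 to 3 (mesoderm 5, 24 and 48 h and early change), and 6 to 114 (48 h) and 6 to 10 (early change) in the endoderm series. The cause was not tested. With 2 libraries a group, technical duplicates by the authors' description, and 1 line per genotype, neither the spread between cultures nor that between lines was measured, and Fosb and Egr2 did not exceed 1.72 CPM in these series.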
